A study of Caenorhabditis elegans with 2 samples.

Results

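The genes described here encode subunits of the nuclear RNA polymerases and the general transcription factors of Caenorhabditis elegans, examined for binding of DPL-1 in their promoters. They are the 50 protein-coding genes of the WBcel235 annotation whose names start with rpb-, rpc-, rpoa-, rpac-, taf-, gtf-, tbp- or ttb-, of 19973 protein-coding genes on the nuclear chromosomes. The names chose the genes, and the score of each gene was then read from the thresholded peak list. The set was proposed with results of these data known, so its counts and levels are given as a description and no test was made on them. The largest subunit of RNA polymerase II is named ama-1 in the worm and therefore falls outside the name rule.

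Chromatin immunoprecipitation with sequencing was carried out on strain OP105, whose genotype is unc119(ed3) with the transgene wgIs105, in which dpl-1 is fused to TY1, EGFP and FLAG and which also carries unc119. Whole L4 larvae were used, males and females pooled. There was 1 group with 2 biological replicates and no second condition. The tagged protein was expressed from a transgene in whole animals, so a strong peak in few cells and a weaker one in many cannot be told apart. On the ce11 build, 3369 peaks met the threshold on irreproducible discovery rate (IDR), with signals from 46.4 to 5205 and a median of 99.3. Relaxed lists of up to 30000 peaks for the pooled data and for each replicate reached lower signals. Signal is the authors' value for each peak whose scale the labels and files do not state, and the depth of the libraries is unknown.

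DPL-1 is the worm DP protein, which pairs with an E2F protein to bind DNA and sits in DRM, a repressor of cell cycle genes that corresponds to DREAM in mammals. RNA polymerase I transcribes the large ribosomal RNA, polymerase II transcribes messenger RNA, and polymerase III transcribes transfer RNA and other short RNAs. Several small subunits are common to all of these enzymes. Polymerase II is placed at promoters by the general factors TFIIA, TFIIB, TFIID, TFIIE, TFIIF and TFIIH, of which TFIID consists of the TATA-binding protein and the TBP-associated factors (TAFs). Many worm genes lie in operons or have trans-spliced transcripts, so that an annotated start can lie downstream of the site where transcription begins.

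The sequences below show the bases around the DPL-1 summit at the strongest bound gene specific to each of polymerases I, II and III, to TFIID and to TFIIB, and at genes with a motif near the summit. Each runs 5′ to 3′ on the strand of its gene, from 100 bp before to 100 bp after the summit, on ce11. The sequences lie at chrII:13694819-13695019 (rpoa-1), chrII:14059869-14060069 (rpb-11), chrIV:7165794-7165994 (rpc-1), chrIV:3694751-3694951 (taf-6.2), chrV:156461-156661 (ttb-1), chrIV:9147048-9147248 (rpb-12), chrX:4254946-4255146 (taf-11.1) and chrII:9669068-9669268 (taf-8). The summits of all 8 lie in intergenic sequence. Those of rpoa-1, rpc-1, taf-6.2 and rpb-12 are on the minus strand. Capitals mark an E2F site (the letters TTCCCGC, or the variant TTCGCGC, the variant TTGCCGC or the variant TTGGCGC, on either strand) or the octamer ACACTCCG on either strand, which was noticed on reading the sequences. The taf-8 sequence was added for that octamer after the others had been read.
rpoa-1: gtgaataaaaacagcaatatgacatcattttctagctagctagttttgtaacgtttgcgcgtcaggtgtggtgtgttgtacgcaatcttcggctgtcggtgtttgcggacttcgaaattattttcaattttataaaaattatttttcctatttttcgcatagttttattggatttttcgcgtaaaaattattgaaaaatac
rpb-11: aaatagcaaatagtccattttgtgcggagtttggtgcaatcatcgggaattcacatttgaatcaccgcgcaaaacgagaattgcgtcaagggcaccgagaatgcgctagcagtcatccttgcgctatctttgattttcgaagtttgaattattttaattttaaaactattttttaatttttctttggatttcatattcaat
rpc-1: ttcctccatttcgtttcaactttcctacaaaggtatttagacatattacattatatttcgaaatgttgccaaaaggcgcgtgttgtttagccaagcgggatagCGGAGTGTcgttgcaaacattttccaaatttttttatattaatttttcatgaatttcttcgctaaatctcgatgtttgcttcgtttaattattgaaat
taf-6.2: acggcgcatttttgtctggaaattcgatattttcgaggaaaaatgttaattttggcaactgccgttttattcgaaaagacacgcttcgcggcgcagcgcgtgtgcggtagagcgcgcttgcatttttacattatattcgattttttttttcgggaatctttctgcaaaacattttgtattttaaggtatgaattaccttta
ttb-1: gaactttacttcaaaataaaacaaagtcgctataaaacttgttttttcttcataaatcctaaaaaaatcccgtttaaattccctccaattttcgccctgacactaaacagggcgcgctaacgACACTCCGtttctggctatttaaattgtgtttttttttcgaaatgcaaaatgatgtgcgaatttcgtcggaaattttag
rpb-12: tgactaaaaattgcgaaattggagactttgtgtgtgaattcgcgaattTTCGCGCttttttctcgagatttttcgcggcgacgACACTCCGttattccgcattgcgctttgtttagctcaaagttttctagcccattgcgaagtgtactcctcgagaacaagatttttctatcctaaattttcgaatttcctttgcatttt
taf-11.1: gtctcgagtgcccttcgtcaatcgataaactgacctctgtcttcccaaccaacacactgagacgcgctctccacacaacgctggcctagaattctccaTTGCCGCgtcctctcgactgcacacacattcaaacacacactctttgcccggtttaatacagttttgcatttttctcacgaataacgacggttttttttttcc
taf-8: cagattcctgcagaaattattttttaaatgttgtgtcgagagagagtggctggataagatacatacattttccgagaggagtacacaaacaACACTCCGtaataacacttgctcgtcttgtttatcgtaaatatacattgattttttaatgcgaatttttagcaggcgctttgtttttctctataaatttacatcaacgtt

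DPL-1 peaks stood at the promoters of many polymerase subunit genes, of fewer TFIID genes and of 2 of the 11 remaining general factor genes. The promoter window covered the 500 bp before and the 200 bp after each annotated transcript start, and a bound gene is one with an IDR summit in it. Of the 50 genes, 23 were bound (46.0%, exact 95% interval 31.8 to 60.7%), against 13.5% of all protein-coding genes. Among polymerase subunit genes 14 of 21 were bound (66.7%, interval 43.0 to 85.4%) and among TFIID genes 7 of 18 (38.9%, interval 17.3 to 64.25%). These intervals overlap, cover the counting of genes only, and the difference between polymerases and TFIID was not tested. Of the 11 genes of TFIIA, TFIIB, TFIIE, TFIIF and TFIIH, 2 were bound (18.2%, interval 2.28 to 51.8%), a share whose interval includes that of all genes. For scale, genes of the Mediator and Integrator complexes, which also act with polymerase II, numbered 14 bound of 31 (45.2%) and cytosolic ribosomal protein genes 69 bound of 78 (88.5%). Integrator alone held 9 of 11 and Mediator 5 of 20.

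The counts moved with the window and the list, and so did the share of all genes. With a window of 200 bp before to 100 bp after the start, 15 of the 50 genes were bound (30%), against 7.61% of all genes. With the 1684 strongest IDR peaks 16 were bound (32%), against 8.94% of all genes. Of these 16, 11 were polymerase genes and 4 were TFIID genes. With the relaxed pooled list 36 were bound (72%), against 35.7% of all genes. The share in the set was above that of all genes under each of these, and the polymerase count was above the TFIID count in each.

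**Figure D1:**
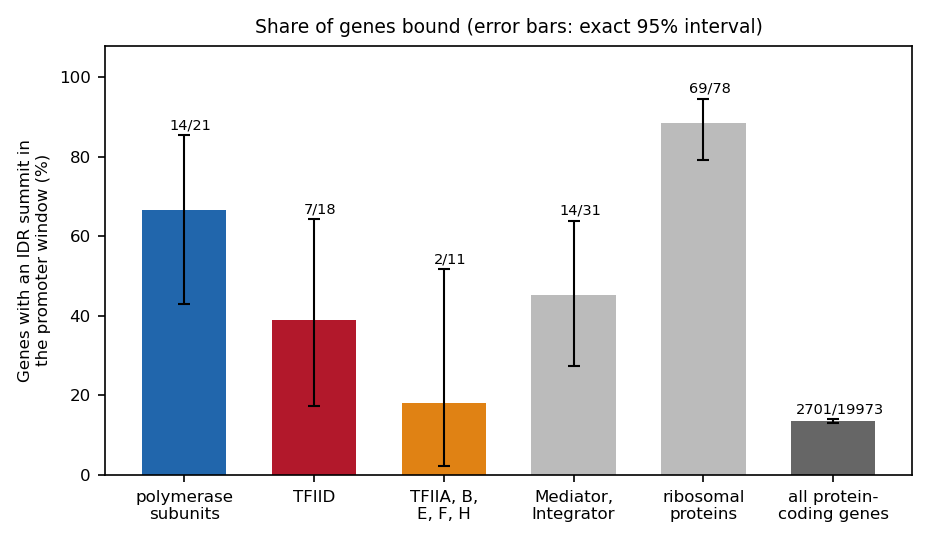
Percentage of genes with an IDR summit in the promoter window, for the 3 groups described here, 2 other gene families and all protein-coding genes. Bars give the share, error bars the exact 95% interval and the numbers over them the bound genes of all genes in the group. The polymerase subunits stand at 66.7%, TFIID at 38.9%, the other general factors at 18.2% and all genes at 13.5%.

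The median signal of the set was near that of all bound genes and above that of the whole IDR list. The 23 bound genes had a median of 162.8, with quartiles of 82.7 and 299, and the median over all bound genes of the genome was 147.9, with quartiles of 81.4 and 311. Of the 23 bound genes, 13 lay above that genome-wide median, and 16 were among the 1684 strongest IDR peaks, whose full list has a median of 99.3. The strongest were rpb-11 and ttb-1, at ranks 21 and 306 of the 3369 IDR peaks. The median was 165.8 for the 14 bound polymerase genes and 143.6 for the 7 bound TFIID genes.

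Among subunits of polymerase II alone, 4 of 6 genes were bound (66.7%, interval 22.3 to 95.7%), against 13.5% of all genes. These 4 genes spanned the widest range of signal. The gene rpb-11, for an assembly subunit, had the strongest peak of all 50 genes, with a pooled signal of 1689 at chrII:14059752-14060139 and rank 21 of 3369. Its signal was 814 in replicate 1 and 853 in replicate 2, with ranks of 23 and 28 in their relaxed lists, and the summit lay at -116 bp from the start. The gene rpb-3, for the partner of that assembly subunit, followed with 349.7 pooled, 180.3 in replicate 1 and 182 in replicate 2, at -126 bp. The stalk subunit genes rpb-7 and rpb-4 had lower peaks. For rpb-7 the values were 159 pooled, 61.3 in replicate 1 and 101 in replicate 2, with the summit at 24 bp, inside its coding sequence. For rpb-4 they were 71.9 pooled, 37.7 in replicate 1 and 36.1 in replicate 2, at -146 bp. The gene of the second largest subunit, rpb-2, had no IDR summit in its window and a relaxed pooled summit of 25.3 at -388 bp. The zinc-ribbon subunit gene rpb-9 had none in the pooled list and a summit of 8.05 in replicate 1 alone.

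All 5 genes for subunits common to the nuclear polymerases were bound (interval 47.8 to 100%), against 13.5% of all genes. Their signals lay between 125 and 487. The strongest was rpb-8, with 487 pooled, 245 in replicate 1 and 241 in replicate 2, at -142 bp. The gene rpb-12 had 233 pooled, 110.3 in replicate 1 and 117 in replicate 2, at -279 bp. These 2 genes had nearly equal signals in the replicates. The gene rpb-6 had 191 pooled, 116.5 in replicate 1 and 83.3 in replicate 2, at -319 bp. The replicates were farther apart at the last pair, in opposite directions. The gene rpb-10 had 169 pooled, 49.1 in replicate 1 and 119.5 in replicate 2, at -215 bp. The gene rpb-5 had 125 pooled, 79.5 in replicate 1 and 37.6 in replicate 2, at -377 bp.

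Of the 4 genes specific to polymerase I, 3 were bound (75%, interval 19.4 to 99.4%), against 13.5% of all genes. All 3 lay below the median of 147.9 over all bound genes, and rpoa-1 alone of them was above the median of 99.3 over all IDR peaks. The gene of the largest subunit, rpoa-1, had 119 pooled, 65.7 in replicate 1 and 44.1 in replicate 2, at -124 bp. The zinc-ribbon subunit gene rpoa-12 had 66.3 pooled, at -149 bp, and 32.9 in replicate 2. Replicate 1 had no summit within 100 bp of it, and one of 32.2 at -261 bp of the start. The gene of the second largest subunit, rpoa-2, was the weakest bound gene of the set, with 46.9 pooled, 24.7 in replicate 1 and 26.7 in replicate 2, at -206 bp. The A49-type subunit gene rpoa-49 was unbound, with a relaxed pooled summit of 20.4 and 22.4 in replicate 1.

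Between polymerases I and III, which share a pair of assembly subunits, 1 of the 2 genes was bound. This was rpac-19, with 175 pooled, 72.5 in replicate 1 and 114 in replicate 2, at -108 bp. The other, rpac-40, had no summit in its window in any list. Of the 4 genes specific to polymerase III under the name rule, 1 was bound (25%, interval 0.63 to 80.6%), against 13.5% of all genes. That interval overlaps those for polymerase I (19.4 to 99.4%) and polymerase II (22.3 to 95.7%), so the enzymes are not ranked. That gene, rpc-1, encodes the largest subunit and had 162.8 pooled, 92.0 in replicate 1 and 75.9 in replicate 2, at -146 bp. The genes rpc-2, for the second largest subunit, and rpc-25, for a stalk subunit, had no summit in any list, and rpc-11 had a relaxed pooled summit of 18.4 at 141 bp.

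**Figure D2:**
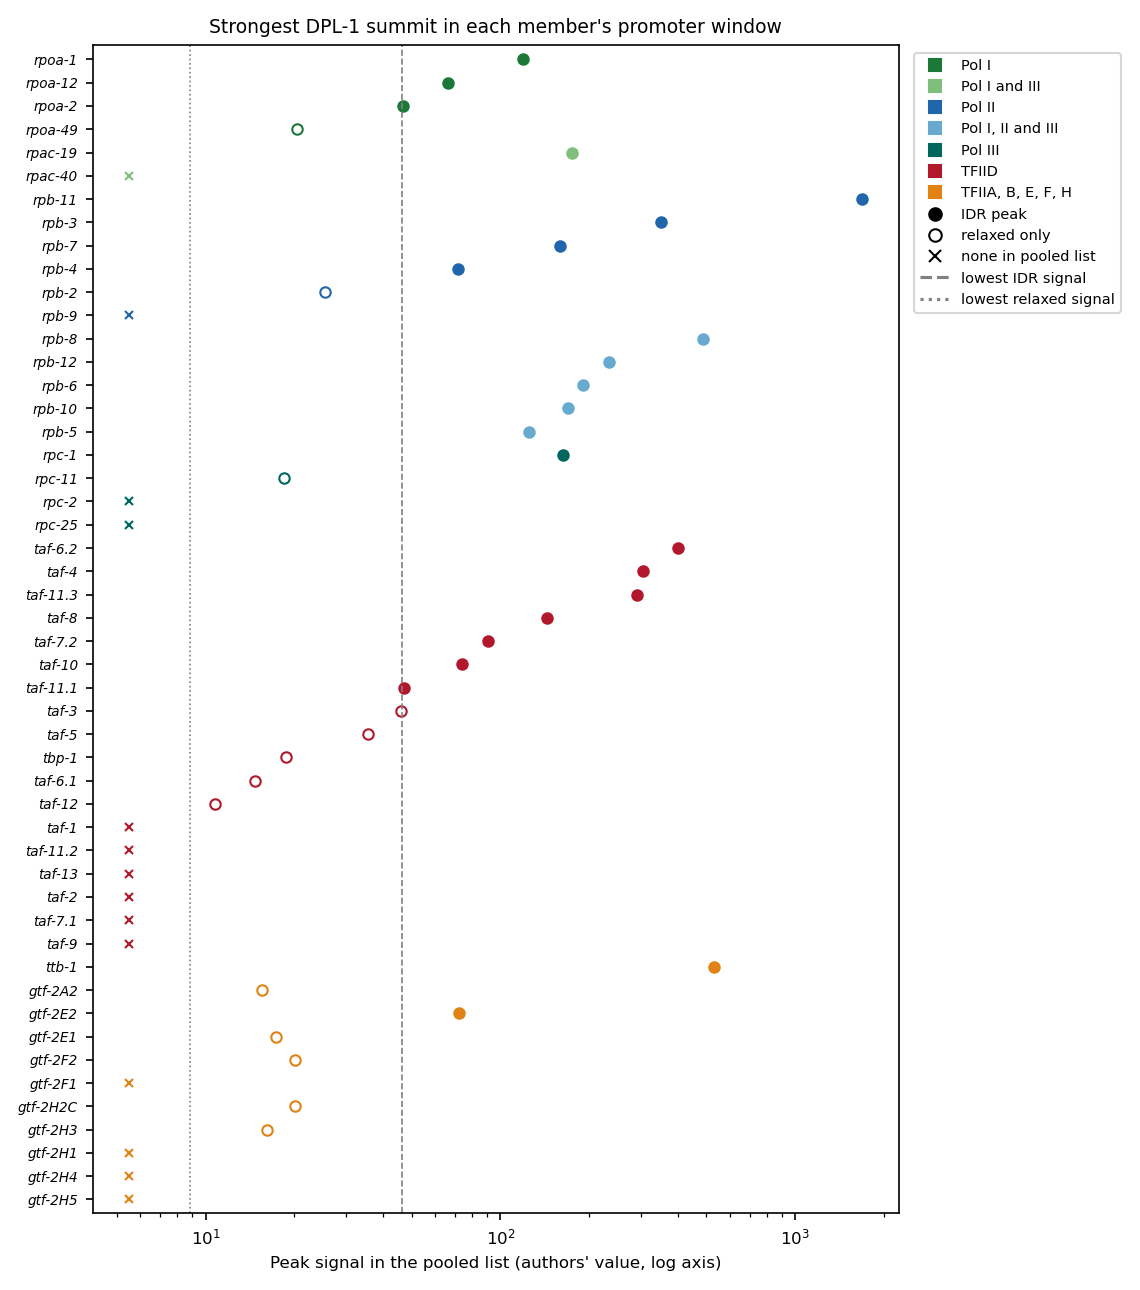
Pooled signal of the strongest summit in the promoter window of each of the 50 genes, on a log axis, grouped by complex. Filled circles are IDR peaks, open circles relaxed peaks only, and crosses genes with none in the pooled list, drawn left of the lowest listed signal of 8.83. The dashed line is the lowest IDR signal, 46.4. The gene rpb-11 stands alone at 1689, and taf-3 at 46.0 falls just short of the line.

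In TFIID, 7 of 17 TAF genes were bound (41.2%, interval 18.4 to 67.1%), against 13.5% of all genes. The gene of the TATA-binding protein was not bound. The families taf-4, taf-6, taf-8, taf-10 and taf-11 each hold a bound gene. They are among those of histone-fold type, through which TAFs pair in TFIID. Other families of that type are not listed, so bound and unbound TAFs were not compared by type. Within the families named, taf-6.1 and taf-11.2 were unbound, and taf-7.2, outside them, was bound. The strongest bound gene was taf-6.2, with 399 pooled, 222 in replicate 1 and 167 in replicate 2, at -118 bp. The gene taf-4 had 306 pooled, 146 in replicate 1 and 157.5 in replicate 2, at -309 bp. The gene taf-11.3 had 291.5 pooled, 133 in replicate 1 and 167 in replicate 2, at -137 bp. These 3 were the only TFIID genes above the median of all bound genes. The gene taf-8 had 143.6 pooled, 81.1 in replicate 1 and 69.8 in replicate 2, at -150 bp. The gene taf-7.2 had 91.0 pooled, 56.5 in replicate 1 and 33.4 in replicate 2, at -135 bp. The gene taf-10 had 74.3 pooled, 28.2 in replicate 1 and 42.6 in replicate 2, at -206 bp. The weakest, taf-11.1 on the X chromosome, rested on replicate 2. It had 47.0 pooled and 41.1 in replicate 2, at -124 bp, while the summit in the window in replicate 1 had 9.29 and lay at -295 bp.

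Genes for the same TAF differed from each other in these calls. At taf-6.2, taf-7.2 and taf-11.3 the summit was shared with a gene on the opposite strand whose start was nearer. When a summit counted for the nearest start only, none of them was bound. Of the taf-6 pair, taf-6.2 was bound and taf-6.1 had a relaxed pooled summit of 14.7. Of the taf-7 pair, taf-7.2 was bound and taf-7.1 had no summit in any list. Of the 3 taf-11 genes, taf-11.3 and taf-11.1 were bound and taf-11.2 had none in the pooled list and one of 5.92 in replicate 2. The gene taf-1, for the largest TAF, was unbound and had a summit of 10.5 in replicate 1 alone. The gene taf-3, on the X chromosome, had the highest pooled signal of the unbound genes, with 46.0 pooled at -300 bp, 12.2 in replicate 1 and 33.6 in replicate 2. The gene tbp-1 had a relaxed pooled summit of 18.8 at 125 bp, with 16.4 in replicate 1 and 7.22 in replicate 2. Further relaxed pooled summits stood at taf-5 (35.6, at 93 bp) and at taf-12 (10.8, at -196 bp). The gene taf-13 had 7.12 in replicate 1 alone, and taf-2 and taf-9 had no summit in any list.

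Of the remaining general factors, TFIIB stood apart. Its gene ttb-1 had the second strongest peak of the set, with 529 pooled, 324 in replicate 1 and 213.5 in replicate 2, at -258 bp. The other bound gene was gtf-2E2, for a TFIIE subunit, with 72.3 pooled, 46.7 in replicate 1 and 29.4 in replicate 2. That peak was centred at -95 bp, inside an intron of the gene dhgd-1. Its TFIIE partner gtf-2E1 had a relaxed pooled summit of 17.4. None of the 5 gtf-2H genes, for core subunits of TFIIH, was bound (interval 0 to 52.2%, which includes the 13.5% of all genes). Of these, gtf-2H2C and gtf-2H3 had relaxed pooled summits of 20.2 and 16.1, and gtf-2H1, gtf-2H4 and gtf-2H5 had none in any list. The TFIIH helicase gene xpb-1, outside the name rule, was bound, as given below. The TFIIF genes were unbound, with 20.03 pooled at gtf-2F2 and 4.42 in replicate 2 alone at gtf-2F1. The TFIIA gene gtf-2A2 had 15.6 pooled, at -319 bp.

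The 27 unbound genes fell into levels. A relaxed pooled summit was listed in the window of 13 of them, and 8 of these 13 also had a relaxed summit in the window in each replicate. A further 5 had a summit in a single replicate and none in the pooled list, and 9 had none in any list. Bound genes included, 36 of the 50 genes (72%) had a relaxed pooled summit, against 35.7% of all protein-coding genes. Neither these levels nor the distances that follow were computed over all unbound genes, so they are a description only. The nearest IDR summit to a start of an unbound gene lay at a median distance of 4394 bp. It was within 1000 bp at 1 gene, taf-12, where it had a signal of 205 at -937 bp, and over 5000 bp away at 11. An absent summit means only that none reached the lowest listed signal, 8.83 in the pooled list, 6.37 in replicate 1 and 4.19 in replicate 2.

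Summits lay mostly upstream of the annotated start, in the set as in the genome. The window itself reached 500 bp upstream but 200 bp downstream, which favours upstream summits in both. Each of the 23 bound genes had 1 IDR summit in its window, and 22 of the 23 (95.7%) had it upstream, against 94.2% of all bound genes. The median distance was -146 bp, with quartiles of -210.5 and -124 bp, and -173 bp over all bound genes, with quartiles of -277 and -104 bp. The 5 common subunit genes had a median of -279 bp, and 4 of them had the summit over 200 bp upstream, as did 8 of the 23 bound genes (34.8%) and 43.3% of all bound genes. The 4 bound genes of polymerase II alone had a median of -121 bp and the 7 TFIID genes one of -137 bp, and bound ribosomal protein genes one of -293 bp. Differences in distance between these families were not tested. Intergenic sequence held 20 of the 23 summits. The exceptions were those of rpb-7 and gtf-2E2 and that of rpb-3, in the exon of the non-coding gene C36B1.16.

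**Figure D3:**
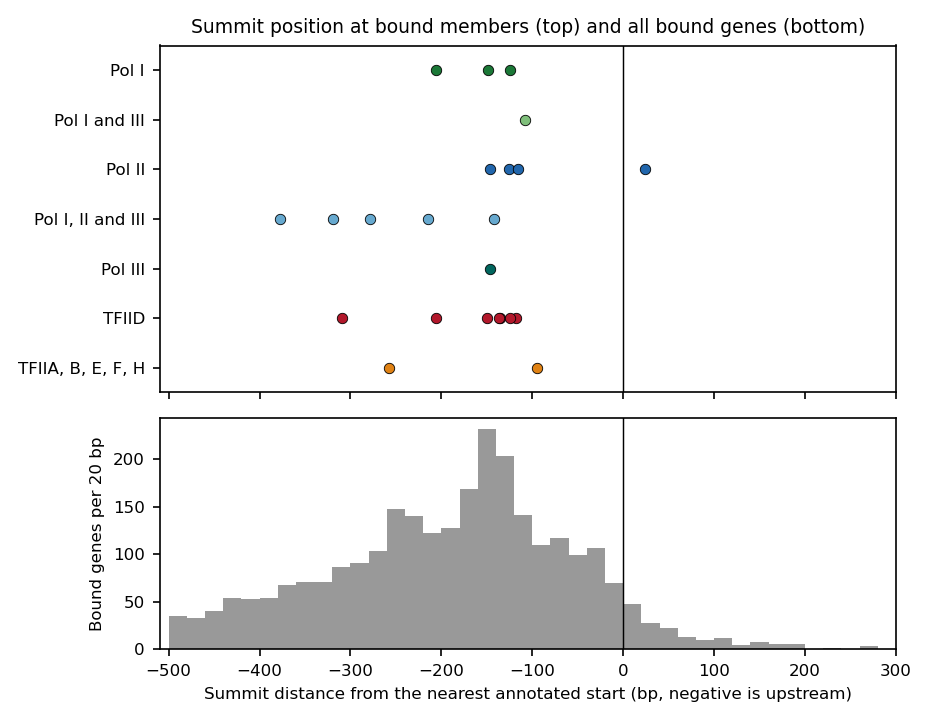
Distance in bp of the IDR summit from the nearest annotated start, negative upstream, for each bound gene by complex (upper panel, 1 point a gene) and for 2701 bound genes of the genome in bins of 20 bp (lower panel, which leaves out 1 gene beyond its right edge). The subunits common to the polymerases run from -377 to -142 bp, and the summit of rpb-7 is the 1 point downstream of a start.

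Several bound promoters were shared with a neighbour on the opposite strand. Of the 23 summits, 15 lay in the window of 1 gene only, so 30% of the 50 genes had a summit of their own, against 7.2% of all genes. The other 8 (34.8% of the bound genes, against 46.8% of all bound genes) also lay in the window of a gene on the opposite strand, and no summit was shared by 2 genes of the set. Polymerase genes made up 5 of the 8. The gene rpb-3 shares its summit with the proteasome core gene pas-4, rpb-4 with mtch-1, rpb-7 with Y54E10BR.2, rpb-10 with Y37E3.1 and rpb-12 with aly-2. In TFIID, taf-6.2 shares its summit with Y37E11AL.3, taf-7.2 with the Elongator gene elpc-2, and taf-11.3 with urm-1. At rpb-7, rpb-10 and all 3 of these TAF genes the start of the neighbour was nearer to the summit. Counted for the nearest start only, 12 polymerase genes (57.1%) and 4 TFIID genes (22.2%) remained bound, against 10.4% of all genes.

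The bound share was lower among genes close behind another gene on the same strand than among the others, in the set and in the genome, a difference that was not tested. A gene was called operon-like where the nearest upstream protein-coding gene on its strand ended within 500 bp of its start. This measures spacing only, since operons are not annotated in the files used. Of 20 operon-like genes in the set 5 were bound (25%), and of the 30 others 18 (60%). Over all genes the shares were 10.01% of 3615 operon-like genes and 14.3% of 16358 others. Among polymerase genes 4 of 10 operon-like genes and 10 of 11 others were bound, rpc-11 being the 1 unbound gene of those 11. In TFIID the counts were 0 of 5 and 7 of 13.

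Some unbound genes followed a bound promoter. Of the 15 unbound operon-like genes, 6 lay in a run whose first gene was itself bound, and of all 3253 such genes in the genome 29.6% did. The gene rpb-2 stands behind fsn-1 in a run that starts with mrps-18C, which had an IDR signal of 80.6. The gene rpc-2 follows hach-1 (212), tbp-1 follows T20B12.3 (125), taf-13 follows ccm-3 (102), rpoa-49 follows nfyc-1 (143) and gtf-2F2 follows Y39B6A.37 (206). Whether these genes share a transcript with the gene ahead of them was not measured.

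Most bound genes had a summit matched to the IDR summit in both replicates. A relaxed summit within 100 bp was present in both replicates for 21 of 23 bound genes (91.3%, against 95.04% of all bound genes) and in replicate 2 only for rpoa-12 and taf-11.1. The match kept only summits within 100 bp. Those kept lay a median of 7.5 bp and at most 55 bp from the IDR summit. Left out were summits of replicate 1 in the windows of rpoa-12 (-261 bp, IDR summit at -149 bp) and taf-11.1 (-295 bp, IDR summit at -124 bp). Offsets over all IDR peaks are not given here, so these are a description only. The ratio of replicate 1 to replicate 2 ran from 0.411 at rpb-10 to 2.12 at rpb-5, with a median of 1.02. Over the 3076 IDR peaks with a summit in both replicates, the median ratio was 0.875, and the 5th and 95th percentiles were 0.383 and 2.1. Of the 23 genes, 20 were among the 3369 strongest peaks of replicate 1 and all 23 among those of replicate 2.

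**Figure D4:**
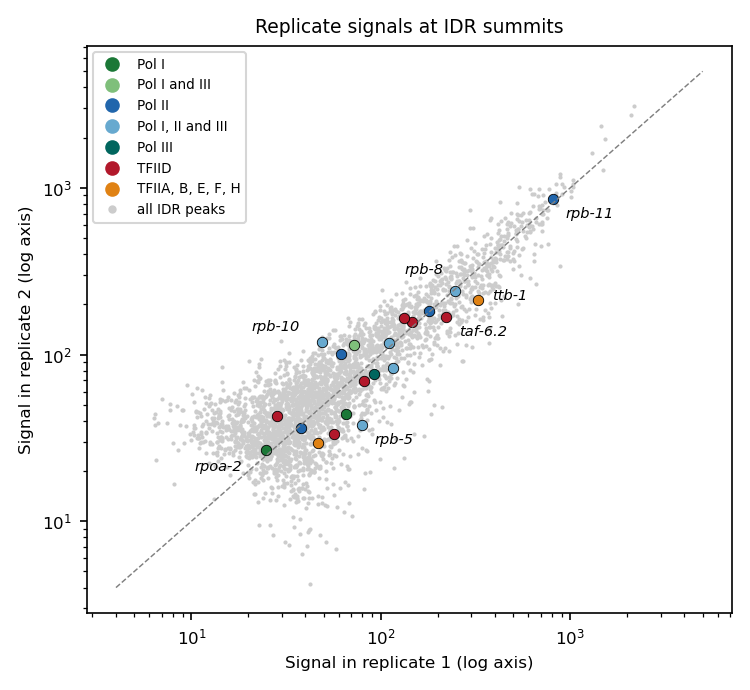
Signal in replicate 1 (horizontal, log axis) and in replicate 2 (vertical, log axis) at IDR summits with a relaxed summit within 100 bp in both. Coloured points are 21 bound genes of the set by complex, grey points 3076 IDR peaks, and the dashed line marks equal signal. The gene rpb-11 lies at 814 and 853, and rpb-10 and rpb-5 lie farthest from the line on opposite sides.

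E2F sites, marked in capitals above, were present at a share of these summits near that of all IDR summits. Within 100 bp of the summit, 4 of 23 genes had one (17.4%), against 21.6% of IDR summits in a promoter window, 19.9% of all 3369 IDR summits and 5.30% of windows of the same length centred on the outer start of every protein-coding gene. These were rpb-7, rpb-12, taf-4 and taf-11.1. At taf-11.1 the site was centred 1 bp from the summit and 123 bp upstream of the start, and at rpb-12 the site was centred 49 bp from the summit. None of the 4 overlapped a CHR element (TTTGAA or TTCGAA, both strands), the sequence bound by the DRM subunit LIN-54. That element was in 18 of 23 windows (78.3%), against 55.2% of IDR summits in a promoter window, 48.8% of all IDR summits and 50.5% of start windows. Within 50 bp it was in 9 of 23 (39.1%), closer to the 31.5% of promoter summits, 27.2% of all IDR summits and 30.3% of start windows. The windows of the set had a median GC content of 35.3%, against 41.3% at all IDR summits. The part of base composition in these shares was not tested. The repeat GAGAGA (both strands) was in 2 of 23 windows (8.70%), at rpb-8 and taf-8, against 28.6% of IDR summits in a promoter window, 36.8% of all IDR summits and 14.0% of start windows.

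The octamer ACACTCCG, searched on both strands, stood within 100 bp of the summit at 5 of 23 genes (21.7%). These were rpb-3, rpb-12, rpc-1, taf-8 and ttb-1, and in the sequences above rpc-1 carries it as its reverse complement. Of all IDR summits 2.94% had it, of IDR summits in a promoter window 4.38%, and of start windows 0.391%. It was centred at most 26 bp from the summit in each of the 5, and overlapped neither an E2F site nor a CHR element. Because it was chosen on these sequences, its share is a description and was not tested. No factor is named for it in the files used here.

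Other genes of the transcription machinery outside the name rule were mixed in the same way. Of 24 genes from a list made for this comparison, 13 were bound (54.2%, against 13.5% of all genes), 6 of them through a summit shared with another gene. The strongest was pafo-1, of the PAF1 complex that travels with polymerase II, with 1379 pooled, 722 in replicate 1 and 699.5 in replicate 2, at -74 bp. Next came emb-5, the worm SPT6 gene, with 545 at -366 bp, and cdc-73, of the PAF1 complex, with 511 at -120 bp. The kinase gene cdk-7, whose product works with TFIIH, had 203, and the TFIIH helicase gene xpb-1 had 74.7, while the helicase gene xpd-1, cyh-1 and mnat-1 had no summit in the pooled list. The TBP-like gene tlf-1 had 90.7 at -479 bp through a summit shared with cdk-8, and tbp-1 itself was unbound. The gene of the largest polymerase II subunit, ama-1, had a relaxed pooled summit of 23.9 at -342 bp, close to that of rpb-2. The polymerase III factor gene brf-1 had none. The remaining bound genes were snpc-1.1 (150.1), snpc-4 (133), cdk-9 (106), ctr-9 (85.8), cit-1.1 (75.3), rtfo-1 (70.7) and spt-5 (67.03), and the unbound were cit-1.2, spt-4, fcp-1, leo-1, snpc-3.1 and snpc-1.2.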

How the data were processed

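The ce11 peak lists were used, namely 3 relaxed ones (each of 2 replicates, and both pooled) and the IDR-thresholded one. Per the deposited file listings, relaxed lists derive from the alignments and from a file that also underlies the control-normalized signal tracks. Aligner and peak caller were not given in the sources used here. Each peak's signal and summit offset in bp were deposited by the authors. The number of reads is unknown, so intervals cover the counting of genes only, and 2 replicates limit the precision of each signal.

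Summits were matched to Ensembl release 115 (WBcel235, the assembly of ce11) with Python 3.11.15 on the 6 nuclear chromosomes, and all peaks lay inside the chromosomes. A summit counted for every gene whose window held it, and the strongest was used. Replicate summits were matched within 100 bp, and motifs were sought in 201 bp of the RefSeq WBcel235 genome around the summit. Exact 95% intervals are Clopper-Pearson (SciPy 1.17.1). Window assignment and motif search were tested on simulated data.

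The genes, lists and motifs were chosen with earlier results of these data known, and the octamer after reading the sequences. No test was made, since the set was picked by name with results in view. Every gene of the set is named. Sequences were shown for the strongest bound gene specific to polymerases I, II and III, TFIID and TFIIB, and for genes with an E2F site, none from chromosome I, and for taf-8 outside that rule. Lists on ce10 were not used.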

Additional observations from a re-analysis of the deposited data

How the results depend on the processing

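The count of 23 bound genes was 15 (30%, against 7.61% of all genes) in the narrow window, 200 bp before to 100 bp after the start. With the relaxed pooled list it was 36 (72%, against 35.7% of all genes). Polymerase genes numbered 9 instead of 14 in the narrow window, where the common subunit genes rpb-5, rpb-6, rpb-10 and rpb-12 and also rpoa-2 dropped out. TFIID genes numbered 4 instead of 7 with the nearest start only and 4 with the 1684 strongest IDR peaks, and 12 with the relaxed pooled list. The other general factor genes numbered 1 instead of 2 in the narrow window and with the strongest IDR peaks, and 7 with the relaxed pooled list. Using a window from 1000 bp upstream added taf-12 (24 genes, 48%, against 16.4% of all genes). The most upstream start changed no call in the set (46%, against 12.8% of all genes). The median signal of bound genes was 73.3 with the relaxed pooled list, which adds 13 genes of lower signal at the same values for the others, and 79.6 to 81.1 when 1 replicate was left out and the signal came from the other replicate's own list. Without replicate 1 the bound genes numbered 24 (48%, against 13.3% of all genes), with taf-3 gained. Without replicate 2 they numbered 21 (42%, against 13.1% of all genes), with rpoa-2 and taf-11.1 lost. Within 50 bp of the summit, 2 of 23 genes had an E2F site (8.7%, against 15.1% of all IDR summits), 9 a CHR element (39.1%, against 27.2%) and 1 GAGAGA (4.35%, against 24.5%), in narrower windows, while the octamer was at 5 genes at 50 and 200 bp, an alternative chosen after seeing the data. No paired analysis was possible because there is 1 group and no test. Depth is unknown, so a missing summit limits only what reached the lists.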
